A study of Mus musculus with 6 samples.

Results

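The piRNA pathway and fetal prospermatogonia genes are a set of 32 genes for PIWI proteins, Tudor domain proteins, germ granule and piRNA-processing factors, arginine methylation, de novo DNA methylation and the NANOS proteins. They were listed by gene name, and each was represented by a probe set annotated to that gene alone. Of the 32, 30 were measured among the 19937 genes of the arrays, each by 1 probe set, and Fkbp6 and Spocd1 were not analysed here. RNA came from mouse gonads freed of the mesonephros at E13.5, a mid-gestation embryonic day, on a mixed background of C57BL6/J and 129. Wild-type gonads were hybridised on 3 arrays, numbered 1, 2 and 5, each from a pool of 6 gonads. Gonads of genotype Sox9flox/flox; Sf1:creTr/+, here the Sox9 mutant, were hybridised on 3 arrays, numbered 3, 4 and 6, each holding the RNA of 12 pooled gonads. The floxed Sox9 alleles are cut by a Cre transgene that is driven by Sf1 (Nr5a1) sequence, which is active in somatic cells of the gonad. No group carried the Cre alone or the floxed alleles alone, pool size went with genotype, and the labels name neither the sex of the embryos nor separate litters. The p-values therefore measure only the spread between these pools, which may be partly technical.

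PIWI proteins carry small RNAs called piRNAs, which guide the silencing of transposons in germ cells. Tudor domain proteins bind methylated arginines of PIWI proteins and assemble them with helicases and nucleases in germ granules next to mitochondria. In the fetal testis, germ cells that do not enter meiosis become prospermatogonia, in which the nuclear PIWI protein PIWIL4 and DNMT3L later direct the DNA methylation of transposons, while NANOS2 holds the male fate and represses meiosis. In the fetal ovary, germ cells enter meiosis at this stage instead.

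Values are deposited log2 values, and a difference is the mutant mean minus the wild-type mean. A gene was called when its adjusted p in limma (Benjamini-Hochberg over 28187 probe sets) was under 0.05. Across all 19937 genes, 2.64% were called higher and 4.30% lower, 6.94% in all, and Sox9 itself fell by 1.31 ± 0.14 log2 (SE; limma adjusted p = 0.00124). Background was marked at 6.67 log2, below which 95% of 1208 probe sets for olfactory and vomeronasal receptors had their means. Liver transcripts stood out on wild type 5, where Afp and Alb measured 11.26 and 11.42 log2, against 5.60 to 6.60 on the other arrays.

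Most members were not called between mutant and wild-type gonads, and the few called genes went in opposite directions. Tdrd5 and Tdrd12 fell and Rnf17 rose, all of them Tudor domain genes. The other 27 measured members did not pass. The 1 called rise is 3.33% of the members, beside 2.64% of all genes, and the 2 called falls are 6.67%, beside 4.30%. These shares are near the background and show nothing particular to the set. The median difference was -0.03 log2 over the members and 0.004 over all genes. Leaving out wild type 1, wild type 2 or mutant 3 left none of the 3 calls, in limma fits in which the 3 genes kept their directions.

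**Figure D1:**
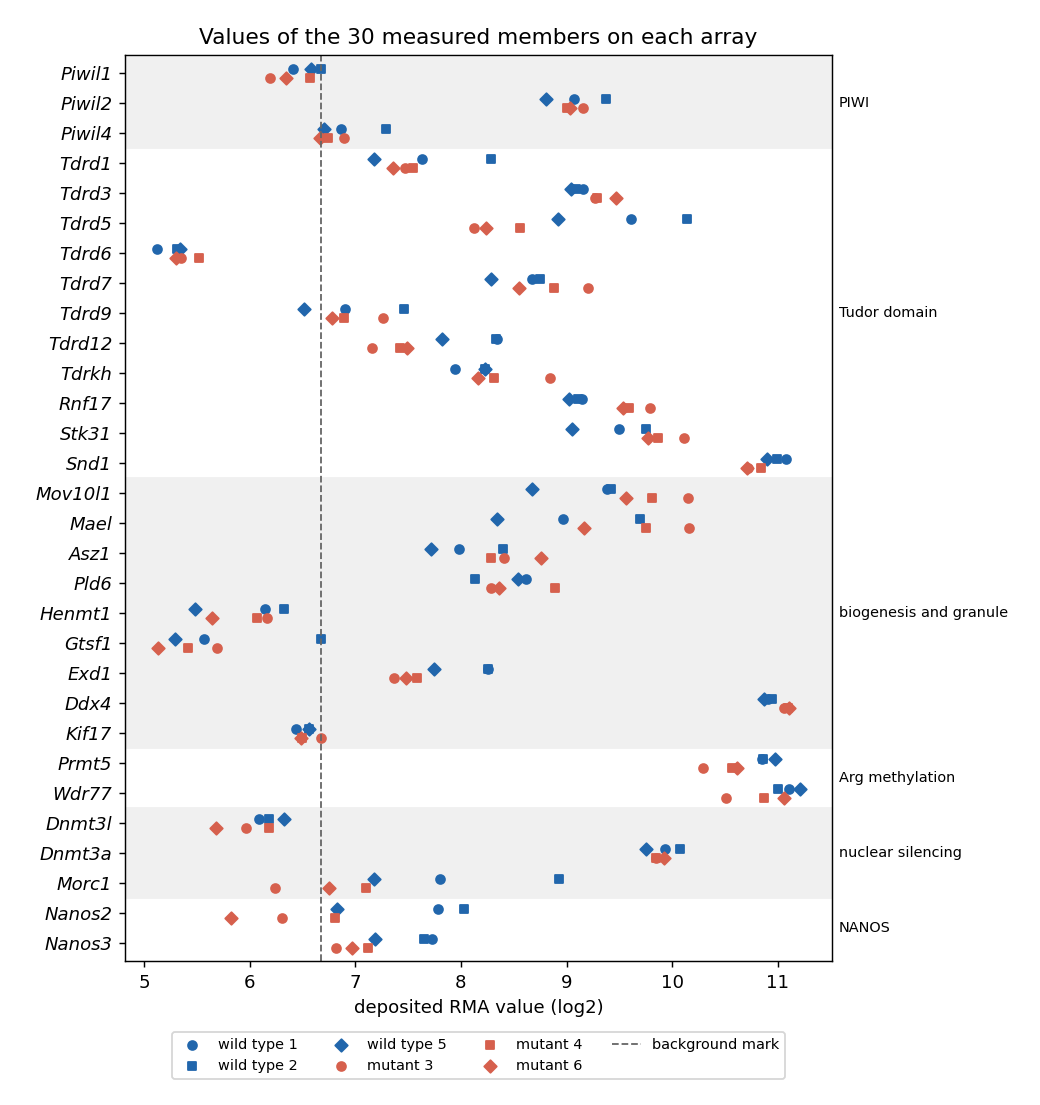
Deposited log2 value (horizontal axis) of each of the 30 measured members (rows, grouped by role) on the 3 wild-type arrays (blue) and the 3 mutant arrays (red), 1 point per array, with the background mark at 6.67 log2 as a dashed line. Blue and red points separate fully at 13 members, among them Tdrd5, Tdrd12 and Rnf17, and overlap at the other 17.

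The germ cell level of the pools frames these values. Ddx4, the germ cell RNA helicase also called Vasa, measured 10.91, 10.95 and 10.87 log2 on wild types 1, 2 and 5, and 11.06, 11.10 and 11.11 on mutants 3, 4 and 6. Its 3 mutant values were all above its 3 wild-type values, by little, and the difference of 0.18 ± 0.10 log2 was not called (SE; limma adjusted p = 0.409). Dazl, an RNA-binding protein of germ cells, averaged 11.35 log2 over wild types and 11.66 over mutants (adjusted p = 0.184). In whole gonads, fewer cells of a type and less RNA per cell cannot be told apart. The germ cell list, which holds Dazl but not Ddx4, itself a member of the set, was split. Of 18 measured genes 5 fell (Dppa3, Dppa4, Utf1, Dnd1 and Prdm1), 0 rose and 13 did not pass, with a median difference of -0.42 log2. Without overlap between groups, 8 of the 18 were lower in the mutant and 4 higher, namely Dazl, Kit, Tfap2c and Lin28a. Over all genes 16.6% were lower and 12.1% higher without overlap.

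Tdrd5 showed the largest called difference of the set. Its product is a Tudor and LOTUS domain protein needed for germ granule assembly. The probe set measured 9.61, 10.14 and 8.92 log2 on wild types 1, 2 and 5, and 8.12, 8.56 and 8.24 on mutants 3, 4 and 6. No mutant array reached the lowest wild-type value, although wild type 5 lay closer to mutant 4 than to wild type 2. Tdrd5 fell from 9.56 ± 0.61 to 8.31 ± 0.23 log2 (SD, n = 3 each), by 1.25 ± 0.27 log2, a 2.38-fold difference (SE; limma adjusted p = 0.0284). The call was lost without wild type 1 (adjusted p = 0.118), wild type 2 (0.0645), mutant 3 (0.114) or mutant 6 (0.0532), and with eBayes with trend and robust (0.0513). Over all alternatives its adjusted p ran from 0.00661 to 0.118.

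Tdrd12 encodes a Tudor domain helicase that takes part in loading piRNAs onto PIWIL4. It measured 8.34, 8.33 and 7.82 log2 on wild types 1, 2 and 5, and 7.16, 7.42 and 7.49 on mutants 3, 4 and 6. All mutant values were below all wild-type values. The gene fell from 8.16 ± 0.29 to 7.36 ± 0.17 log2 (SD, n = 3 each), by 0.81 ± 0.17 log2 or 1.75-fold (SE; limma adjusted p = 0.0234, 0.00938 to 0.110 over the alternatives). The call was lost without wild type 1, wild type 2, mutant 3 or mutant 4, and the smallest of the differences with an array left out was -0.71 log2.

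Exd1 encodes a nuclease-like partner of TDRD12 that binds RNA and supports piRNA production. It measured 8.26, 8.26 and 7.74 log2 on wild types 1, 2 and 5, and 7.37, 7.58 and 7.48 on the mutants. Its arrays separated in the same way as those of Tdrd12, with wild type 5 the lowest of the wild types. The difference of -0.61 ± 0.16 log2 was just outside the threshold (SE; limma adjusted p = 0.0595). Its adjusted p ran from 0.0167 without wild type 5 to 0.218 without wild type 1.

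Rnf17 was the member called higher. It encodes a Tudor domain protein with a RING finger, known for restraining piRNA amplification in meiotic male germ cells. Values were 9.15, 9.11 and 9.02 log2 on wild types 1, 2 and 5, and 9.79, 9.59 and 9.53 on mutants 3, 4 and 6. Both groups were tight, and the lowest mutant lay above the highest wild type. Rnf17 rose from 9.09 ± 0.07 to 9.64 ± 0.14 log2 (SD, n = 3 each), by 0.54 ± 0.12 log2 or 1.46-fold (SE; limma adjusted p = 0.0283, 0.0142 to 0.101 over the alternatives). Its call was kept without mutant 6 (adjusted p = 0.0335) and lost without any other array.

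The remaining Tudor domain genes did not pass. Stk31, which joins a Tudor domain to a kinase-like domain, averaged 9.43 ± 0.35 log2 over wild types and 9.92 ± 0.17 over mutants, with no overlap (SD, n = 3 each; adjusted p = 0.180). Tdrd3, a reader of methylated arginine in many cell types, differed by 0.24 log2, and Snd1, a nuclease present in most cells, by -0.23, each without overlap between groups (adjusted p = 0.281 and 0.305). Tdrd1, the scaffold that binds PIWIL2 in the granules of prospermatogonia, measured 7.63, 8.28 and 7.18 log2 on wild types 1, 2 and 5, and 7.47, 7.55 and 7.36 on the mutants. The wild-type values of Tdrd1 enclosed those of the mutants, and the sign of its difference (-0.23 ± 0.24 log2, SE; adjusted p = 0.668) turned without wild type 2. Tdrd9, a helicase that works with PIWIL4, measured 6.90, 7.46 and 6.51 log2 on the wild types and 7.26, 6.89 and 6.78 on the mutants, and its difference of 0.02 ± 0.23 log2 (adjusted p = 0.974) changed sign between settings, quantile normalization among them. Tdrd7, a protein of germ granules and the lens, and Tdrkh, a mitochondrial protein that holds PIWI proteins for trimming, differed by 0.31 and 0.30 log2 with overlapping groups (adjusted p = 0.424 each). Tdrd6, of the chromatoid body of spermatids, lay below the background mark on all 6 arrays. In total 2 of the 11 measured Tudor genes fell, 1 rose and 8 did not pass, while 4.30% of all genes were called lower and 2.64% higher. With so few genes the count rests on 3 calls, all lost without wild type 1, wild type 2 or mutant 3. It shows nothing particular to Tudor genes.

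**Figure D2:**
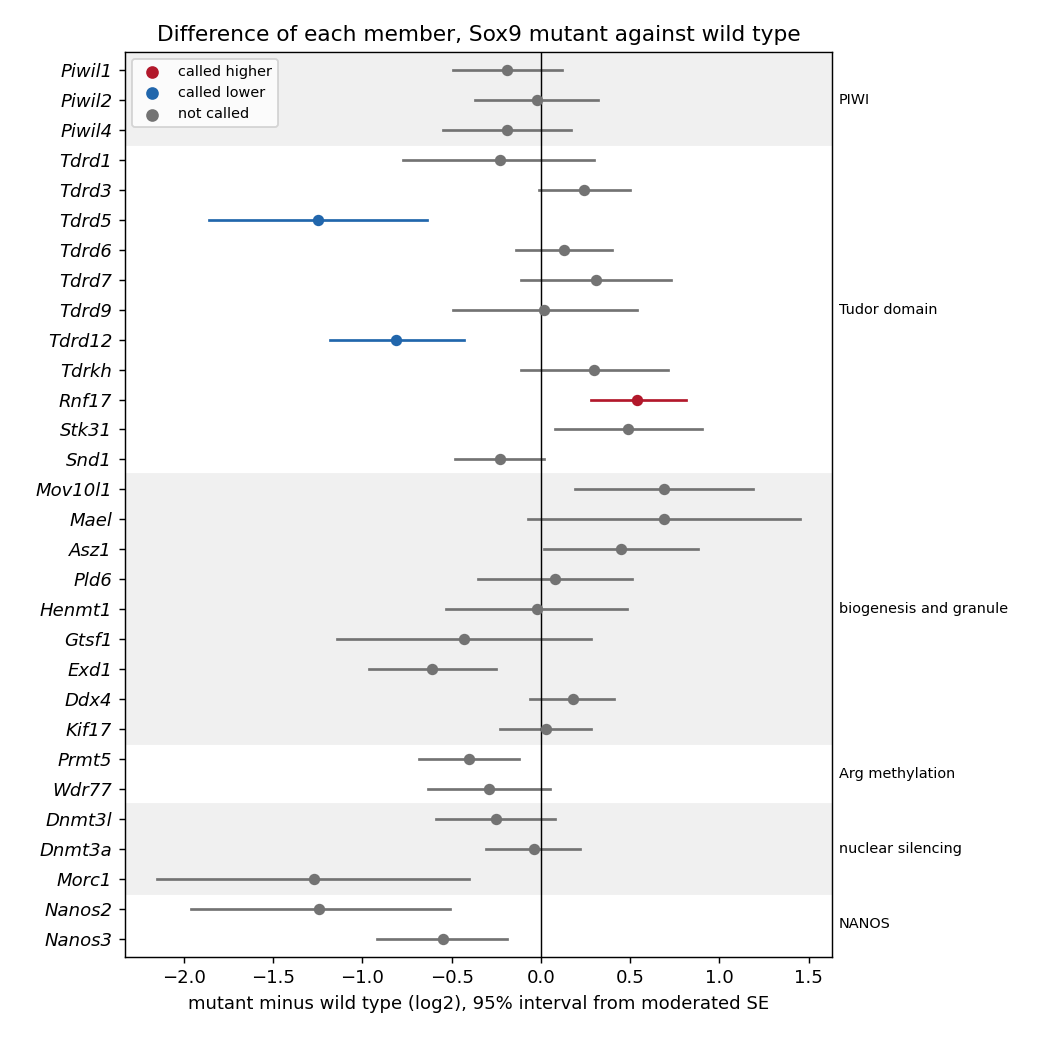
Difference between mutant and wild type for each member (log2, horizontal axis), with its 95% interval from limma's moderated standard error, grouped by role (n = 3 arrays each). Tdrd5 and Tdrd12 are marked as called lower and Rnf17 as called higher. The intervals of Nanos2, Nanos3, Morc1, Exd1, Prmt5, Mov10l1, Stk31 and Asz1 also exclude 0, without adjustment over the genes tested.

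The 3 measured PIWI genes did not pass, and their groups overlapped. Piwil2, the PIWI protein that cuts transposon RNA and starts piRNA amplification, measured 9.07, 9.37 and 8.81 log2 on wild types 1, 2 and 5, and 9.16, 9.00 and 9.03 on mutants 3, 4 and 6. The mutant values lay inside the wild-type range, and the 95% interval of the difference ran from -0.37 to 0.32 log2 (limma adjusted p = 0.959), with a sign that turned under quantile normalization. Piwil4, the nuclear PIWI protein of fetal prospermatogonia, measured 6.86, 7.29 and 6.70 log2 on the wild types and 6.89, 6.74 and 6.66 on the mutants. Mutant 6 lay just below the background mark and wild type 2 was the highest. The interval of the difference ran from -0.55 to 0.17 log2, at a level where RMA compresses differences (adjusted p = 0.601). Piwil1, the PIWI protein of meiotic and later male germ cells, had both group means below the mark (6.55 and 6.37 log2).

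Among the 9 measured genes of piRNA biogenesis and the germ granule none was called in the limma fit, 3 had an unadjusted p under 0.05 (33.3%, beside 21.7% of all genes), and 6 of 9 differences were positive (66.7%, beside 50.8%). Mov10l1, the RNA helicase that feeds precursors into primary piRNA processing, measured 9.38, 9.42 and 8.67 log2 on wild types 1, 2 and 5, and 10.15, 9.81 and 9.56 on mutants 3, 4 and 6. Its groups did not overlap. The difference of 0.69 ± 0.22 log2 was not called (SE; limma adjusted p = 0.120), and was called with numbers 5 and 6 as a hypothetical batch (0.0127). Mael, an HMG-box protein of fetal germ granules, measured 8.97, 9.70 and 8.34 log2 on the wild types and 10.16, 9.75 and 9.17 on the mutants. It had the widest spread of the biogenesis genes above the background mark, with wild type 2 above mutant 6 (difference 0.69 ± 0.34 log2, SE; adjusted p = 0.316). Asz1, a mitochondrial anchor of germ granules, differed by 0.45 log2 (adjusted p = 0.237). Pld6, the mitochondrial nuclease that cuts piRNA precursors, differed by 0.08 log2 (adjusted p = 0.878), with a sign that turned without wild type 2 or mutant 4. Henmt1, which methylates the ends of piRNAs, Gtsf1, a cofactor of PIWI cleavage, and Kif17, a kinesin that binds a transcription coactivator in spermatids, had both group means below the background mark.

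The NANOS genes and Morc1 were lower on every mutant array without being called. Nanos2, which represses meiosis in male germ cells, measured 7.78, 8.03 and 6.83 log2 on wild types 1, 2 and 5, and 6.30, 6.81 and 5.82 on mutants 3, 4 and 6. Wild type 5 and mutant 4 nearly met, and the mutant mean lay below the background mark, where falls are understated. The difference was -1.24 ± 0.32 log2, 2.36-fold (SE; limma adjusted p = 0.0590), and its adjusted p ran from 0.00225 with numbers 5 and 6 as a batch to 0.213 without wild type 1. Nanos3, needed for survival of primordial germ cells, measured 7.73, 7.65 and 7.19 log2 on the wild types and 6.82, 7.12 and 6.97 on the mutants. Its groups did not overlap either, with wild type 5 and mutant 4 again the closest, and the difference was -0.55 ± 0.16 log2 (SE; adjusted p = 0.0880). Morc1, an ATPase that represses transposons in male germ cells, measured 7.80, 8.93 and 7.18 log2 on the wild types and 6.24, 7.10 and 6.75 on the mutants. Its wild-type arrays spread over 1.75 log2, the widest of the set, beside a difference of -1.27 ± 0.39 log2 (SE; adjusted p = 0.104).

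De novo methylation genes and the arginine methylation complex did not pass. Dnmt3l, the cofactor of the DNA methyltransferases in prospermatogonia, measured 6.09, 6.18 and 6.32 log2 on wild types 1, 2 and 5, and 5.96, 6.18 and 5.68 on mutants 3, 4 and 6. Every one of these was below the background mark, so its difference of -0.25 ± 0.15 log2 says little (SE; adjusted p = 0.406). Dnmt3a, a de novo DNA methyltransferase of many cell types, measured 9.92 ± 0.16 and 9.87 ± 0.04 log2 (SD, n = 3 each; adjusted p = 0.893, interval -0.31 to 0.22), with a sign that turned under quantile normalization. Prmt5, which places symmetric methyl marks on arginines of PIWI proteins, was lower on all mutant arrays, with a difference of -0.40 ± 0.12 log2 (adjusted p = 0.105). Wdr77, its partner subunit, differed by -0.29 ± 0.15 log2 with overlapping groups (SE; adjusted p = 0.350).

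Counting the arrays rather than the calls, 13 of 30 members (43.3%) had no overlap between groups, 5 higher and 8 lower in the mutant. Over all genes the share was 28.7%, with 12.1% higher and 16.6% lower. An unadjusted p under 0.05 was found for 11 members (36.7%), against 21.7% of all genes. Of the 10 members without overlap that were not called, 4 were higher and 6 lower. Intervals of 7 members lay within 0.5 log2 of 0 on both sides. These include Piwil1, Tdrd6 and Kif17, whose group means were both below the background mark, where RMA compresses differences. Of the other 20 uncalled members, 8 had unadjusted intervals that exclude 0, and 12 had intervals that include 0 and reach or pass 0.5 log2 in size.

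The members varied more among wild-type arrays than most genes. The range over the 3 wild-type arrays had a median of 0.51 log2 for members and 0.26 for all genes, while over the mutant arrays it was 0.36 and 0.28. Ranges over 1 log2 in wild type occurred at 6 of 30 members and in the mutant at 0. Of all 19937 genes, 117 had such a range in wild type and 232 in the mutant. Among the 24 members with a mean above the background mark, wild type 5 was the lowest wild type at 20 and wild type 2 the highest at 15. Among all 13018 genes above the mark, wild type 5 was the lowest at 39.5% and wild type 2 the highest at 21.6%. A low wild type 5 was also frequent at meiotic genes, where it was the lowest wild type at 13 of 21 (61.9%). In the germ cell list it was the lowest at 7 of 18 genes (38.9%), near the share of all genes. Wild type 2 was the highest at 28.6% and 38.9% of these lists. Wild type 5 is the array with liver transcripts: the 8 liver genes stood at a median of 9.44 log2 there and at 6.30 and 6.40 on wild types 1 and 2. Their part in the low member values was not tested. Ddx4 differed by 0.08 log2 at most among wild types, and the median of 10 Sertoli genes was 9.69 log2 on wild type 5 beside 9.81 and 9.80 on the other wild types.

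**Figure D3:**
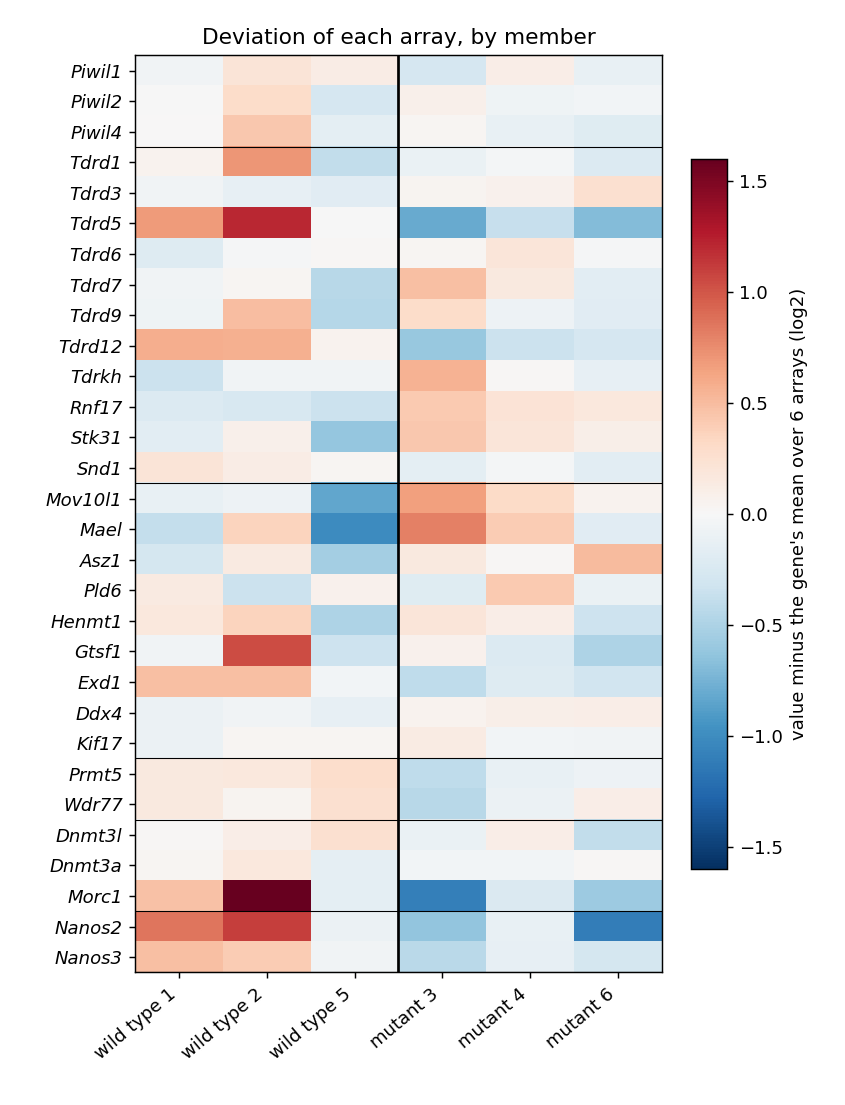
Value of each member on each array minus that gene's mean over the 6 arrays (log2, colour scale; red above, blue below), with wild type left of the vertical line and roles divided by horizontal lines. Tdrd5, Tdrd12, Exd1, Morc1, Nanos2 and Nanos3 are red on wild types 1 and 2 and near white on wild type 5, while Mov10l1 and Mael are blue on wild type 5 and red on mutant 3.

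Without wild type 5, 6 members were called lower in limma: Tdrd5, Tdrd12, Exd1, Morc1, Nanos2 and Nanos3, with 0 higher. Wild type 5 was the lowest wild type at each of these 6, so leaving it out enlarges each fall by arithmetic. These calls are therefore no support for the falls. The adjusted p of the 6 then ran from 0.00661 for Tdrd5 to 0.0389 for Morc1, and that of Rnf17 was 0.0905. The same 6 were called among numbers 1 to 4 alone, again with 0 higher. That fit also leaves out wild type 5, along with mutant 6, so it reuses the same arrays and is no separate support. Fewer genes were called in all without wild type 5, 1.42% higher and 2.48% lower. Among numbers 1 to 4 the shares of all genes were 1.92% higher and 2.57% lower. Within numbers 1 to 4, mutant minus wild type was -1.35 log2 for Nanos2, -1.53 for Tdrd5 and -1.69 for Morc1. Within numbers 5 and 6, with a single array on each side and so no test, it was -1.01, -0.68 and -0.44.

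**Figure D4:**
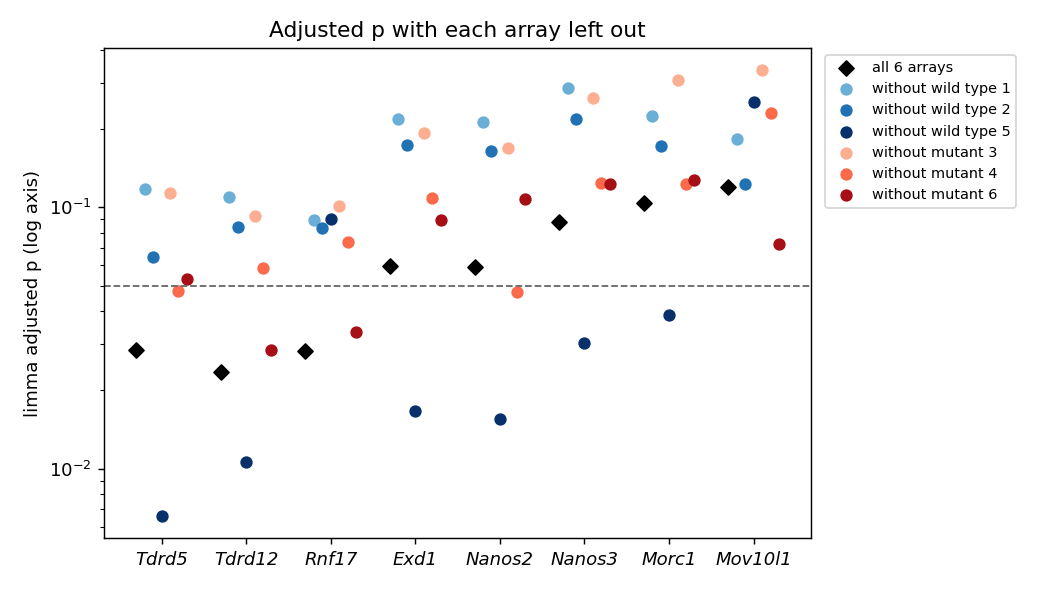
Adjusted p of 8 members in limma (vertical log axis) with all 6 arrays (black diamonds) and with each array left out (circles, blue for wild types and red for mutants); the dashed line is the threshold of 0.05. For the 6 members other than Rnf17 and Mov10l1 the lowest points are those without wild type 5, the lowest wild-type array at each of them. For Rnf17 every circle but that without mutant 6 is above the line.

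Meiotic genes moved with the mutant group and set its arrays apart. Of 21 measured meiotic genes 10 rose, 0 fell and 11 did not pass (median difference 1.25 log2), and all 21 were highest on mutant 3 and lowest on mutant 6 among the mutants. Their median above the wild-type mean was 2.27 log2 on mutant 3, 1.27 on mutant 4 and 0.58 on mutant 6. Among the members, 11 of 30 followed that order of mutant arrays (36.7%), against 22.2% of all genes. They were Stk31, Mov10l1, Mael, Rnf17, Tdrd7, Tdrd9, Tdrkh, Piwil4, Gtsf1, Henmt1 and Kif17. Gtsf1, Henmt1 and Kif17 had both group means below the background mark, and Gtsf1, Henmt1 and Piwil4 had negative differences. Over the members, mutant 3 was the highest mutant at 12 and the lowest at 11. Of 6 genes linked to signalling in the male germ cell fate, Fgf9 did not pass and 5 fell: Nodal, Lefty1, Lefty2, Tdgf1 and Cyp26b1. Among them Nodal fell from 7.35 to 6.43 log2 and Lefty2 from 8.39 to 6.02, with mutant means below the background mark, where falls are understated. Somatic markers differed too. Of 10 Sertoli genes 8 fell, all 4 measured Leydig genes fell and all 8 pregranulosa genes rose. The Sertoli genes had a median of 8.31 log2 on mutant 4, against 6.55 and 6.90 on mutants 3 and 6, and the Leydig genes 8.97 against 6.48 and 6.51, so mutant 4 stood nearest to wild type. Mutant 4 was the highest mutant at 6 of the 8 members that were lower without overlap: Tdrd5, Snd1, Exd1, Morc1, Nanos2 and Nanos3. Over all 30 members it was the highest at 36.7%, near the 33.0% of all genes. Without mutant 4, the difference of Tdrd5 was -1.38 log2 (limma adjusted p = 0.0477) and that of Nanos2 -1.49 (0.0474). The part of meiotic entry and of the somatic cell types in the member differences was not tested.

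Sequence upstream of the members is shown for the called falls Tdrd5 and Tdrd12, for Nanos2 and for the germ cell gene Ddx4. These differ widely in CG content. DNA methylation was not measured. The 250 bases before the first listed RefSeq start in GRCm38.p6 are printed on the gene's strand, with CG pairs in capitals.
Tdrd5 (chr1:156303349-156303598, minus strand): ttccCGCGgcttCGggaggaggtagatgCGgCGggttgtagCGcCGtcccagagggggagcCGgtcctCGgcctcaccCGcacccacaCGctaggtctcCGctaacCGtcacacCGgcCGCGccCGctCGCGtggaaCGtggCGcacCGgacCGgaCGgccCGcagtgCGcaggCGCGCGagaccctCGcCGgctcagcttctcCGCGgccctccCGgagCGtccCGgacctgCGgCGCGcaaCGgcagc
Tdrd12 (chr7:35537716-35537965, minus strand): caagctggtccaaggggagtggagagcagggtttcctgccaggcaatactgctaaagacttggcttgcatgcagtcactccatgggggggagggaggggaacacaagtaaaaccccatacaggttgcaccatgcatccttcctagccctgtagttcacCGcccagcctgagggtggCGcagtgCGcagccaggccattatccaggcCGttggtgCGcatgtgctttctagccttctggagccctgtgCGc
Nanos2 (chr7:18987274-18987523, plus strand): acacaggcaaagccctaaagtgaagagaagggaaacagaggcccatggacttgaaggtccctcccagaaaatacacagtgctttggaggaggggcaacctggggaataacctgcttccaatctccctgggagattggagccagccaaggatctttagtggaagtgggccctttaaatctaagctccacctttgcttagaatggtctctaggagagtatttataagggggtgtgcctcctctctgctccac
Ddx4 (chr13:112652311-112652560, minus strand): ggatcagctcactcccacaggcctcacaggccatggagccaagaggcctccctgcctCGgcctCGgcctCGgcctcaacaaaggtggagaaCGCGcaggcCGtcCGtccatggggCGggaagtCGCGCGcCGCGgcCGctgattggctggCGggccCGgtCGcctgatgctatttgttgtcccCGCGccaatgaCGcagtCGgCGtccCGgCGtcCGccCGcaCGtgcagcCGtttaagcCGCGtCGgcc
Tdrd5 holds 40 CG pairs in this window, Ddx4 31, Tdrd12 6 and Nanos2 0. The 2 called falls thus lie toward opposite ends of the set in CG content, with 0 members above Tdrd5 and 4 below Tdrd12. The 27 members with a sequence had a median of 17 CG pairs beside 6 for 27025 genes. The observed number of CG pairs over that expected from base composition had a median of 0.75 in the members and 0.38 in all genes.

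Motifs were searched on both strands of these windows at the 27 members, leaving out Piwil2, Tdrd6, Rnf17, Morc1 and Spocd1. CACGTG, the E-box bound by MAX and its partners, was present at 8 (29.6%), against 6.0% of all promoters: Ddx4, Fkbp6, Mael, Mov10l1, Piwil1, Stk31, Tdrd1 and Tdrd9. Fkbp6 was not measured, and of the other 7 none was called in limma, while 2 had an unadjusted p under 0.05 (28.6%, beside 21.7% of all genes). Shares this near the background show nothing particular to these genes. TCCCGC, the core bound by E2F6, was present at 7 (25.9%, against 16.9%), among them Tdrd5, Ddx4 and Mael. CACGTG and TCCCGC each hold a CG pair, and the members had a median of 17 CG pairs beside 6 for all genes. The promoters compared were not matched for CG content, and its part in these shares was not tested. CNCCTCAG, a motif reported for STRA8, was present at 1, Tdrd7 (3.7%, against 6.4%), and AACAAT, a core of SOX protein sites, at 1, Asz1 (3.7%, against 9.6%). None of these 4 motifs was in the windows of Tdrd12, Exd1, Nanos2 or Nanos3.

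Other genes of the pathway and of chromatin silencing, taken from a list of 45, were measured at 40. In the limma fit 5 rose, 1 fell and 34 did not pass (12.5% and 2.5% of the 40, beside 2.64% and 4.30% of all genes), and the median difference was 0.02 log2. Tex15, a nuclear partner of PIWIL4 in transposon silencing that is also needed for meiotic recombination, measured 7.12, 7.60 and 6.33 log2 on wild types 1, 2 and 5, and 9.82, 8.78 and 7.93 on mutants 3, 4 and 6. It rose by 1.82 ± 0.45 log2 (SE; adjusted p = 0.0480), and its mutant arrays followed the order of the meiotic genes. Ythdc2, an RNA helicase that works with MEIOC in meiotic entry, rose by 0.97 ± 0.17 log2 (adjusted p = 0.0106). Hells, a chromatin remodeller needed for DNA methylation, rose by 0.51, Nanos1 by 0.50 with both group means below the background mark, and Patl2, an RNA-binding protein of oocytes, by 0.48 log2. Dnd1, a partner of NANOS2, fell by 0.83 ± 0.20 log2 (SE; adjusted p = 0.0430). Dnd1 and Dazl stand both in this list and in the germ cell list. Leaving out wild type 1, 2 or 5 or mutant 3 or 4 left Ythdc2 as the single call of these genes.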

How the data were processed

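RNA of 6 pools of gonads was measured on Affymetrix arrays, 300 ng of total RNA each. The deposited values are log2 values after RMA by the authors, per the submitters' processing notes; RMA subtracts background, equalises the distributions and summarises probes, which compresses differences near background and hides any general change in RNA content. Version and settings of RMA: not given in the sources used here. Of 34760 rows, 6573 (18.9%) with identifiers below the lowest annotated one were left out as the control block, a rule set after seeing the identifiers. The 28187 tested probe sets included 21640 with 1 gene, 1321 with several and 5226 with none in the annotation used. Each gene took its probe set of highest mean; 21553 matched GRCm38.p6 by Entrez identifier and 0 symbols changed.

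The mutant was set against wild type with lmFit and eBayes of limma 3.58.1 (R 4.3.3), 2-sided, with 4 residual degrees of freedom. Errors of means are standard deviations, those of differences moderated standard errors; the number of arrays limits the precision. Tested on simulated data of mutant against wild type (28187 probe sets), the fit recovered 40% of 1.5-fold, 96% of 2-fold and 100% of 4-fold changes, with 8 false calls. The simulated noise was normal, with each probe set's moderated variance and the same size on every array. Real arrays were less even, with limma array weights from 0.593 to 1.79, and the members spread more in wild type. These rates may therefore be too high for the members. The members and lists were chosen with earlier results of these data known. All members are accounted for; full statistics were set for called members and core prospermatogonial genes, and others (Exd1, Morc1, Rnf17's array order, Stk31) were described after their values were seen. Alternatives were 2 scalings, a filter at the background mark, array weights, eBayes with trend and robust, numbers 5 and 6 as a hypothetical batch, numbers 1 to 4 alone, means of probe sets and each array left out. Figures were drawn with matplotlib 3.10.9.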

Additional observations from a re-analysis of the deposited data

How the results depend on the processing

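Over 14 alternatives no called member changed sign, and the 7 members that did had main differences of at most 0.23 log2. The count of members called higher, 1, was 2 with numbers 5 and 6 as a batch and 0 among numbers 1 to 4, and ran from 0 to 1 with arrays left out. The count called lower, 2, was 4 above the background mark (24 members tested) and with array weights, 5 with the batch and 6 among numbers 1 to 4, and ran from 0 to 6. The share of all genes called lower was 4.30% in the main fit, 8.71% above the mark and 5.11% with array weights. It was 6.22% with the batch, 2.57% among numbers 1 to 4 and 1.66% to 3.74% with an array left out. The share called higher was 2.64%, 4.11% with the batch, 1.92% among numbers 1 to 4 and 1.31% to 2.74% with an array left out. Of the other pathway genes, the 5 called higher became 2 among numbers 1 to 4 and ran from 1 to 4; the 1 called lower became 0 with quantile normalization, 3 above the background mark and with array weights, and 2 with trend and robust, the batch or numbers 1 to 4, and ran from 0 to 3. Over all genes 1384 were called, 593 to 1292 with an array left out, and 2061 with the batch and 1766 above the mark. The cause was not tested, beyond the fewer arrays or genes. Sign changes were to 0.04 (Piwil2), -0.02 (Tdrd9), -0.03 (Kif17) and 0.01 (Dnmt3a) with quantile normalization, and for Tdrd9 to -0.07 with array weights and -0.10 among numbers 1 to 4. With arrays left out, differences ran from -0.16 to 0.12 (Piwil2), -0.49 to 0.06 (Tdrd1), -0.20 to 0.27 (Tdrd9), -0.11 to 0.20 (Pld6), -0.27 to 0.14 (Henmt1), -0.03 to 0.06 (Kif17) and -0.13 to 0.03 log2 (Dnmt3a). No paired analysis was possible because the groups share no replicate number.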

Other observations

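Some genes of DNA demethylation and chromatin that stand next to the pathway separated the groups without passing, and are named after their values were seen. Tet1, which oxidises methylated cytosine, measured 9.66, 9.76 and 9.77 log2 on wild types 1, 2 and 5 and 8.86, 9.28 and 9.39 on mutants 3, 4 and 6 (limma adjusted p = 0.0670). Kdm1b, a histone demethylase needed for DNA methylation in oocytes, averaged 8.11 log2 over wild types and 8.55 over mutants (adjusted p = 0.0647). Pnldc1, which trims piRNA ends, measured 8.69 and 8.21 log2 (adjusted p = 0.0758), and Gpat2, a mitochondrial protein of piRNA biogenesis, 8.43 and 9.30 (adjusted p = 0.136).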
